A study of Mus musculus with 12 samples.

Results

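The genes described here are 36 type I interferon response genes, taken by symbol from the gene tables of a mouse bone marrow RNA-seq series, and all 36 were found among 53801 genes. All 36 also passed the filter on low counts that left 15119 genes for testing. Sham-E 1 and MI 2, 2 libraries that stood apart from their groups, are shown apart throughout. Whole marrow RNA of C57BL/6N mice had been sequenced in 12 libraries, 3 in each of 4 groups. Sham mice were sham-operated, and MI mice had a myocardial infarction, for which the protocol in the labels ties off the left anterior descending coronary artery (LAD) near the left auricle. Sham-E and MI-E mice had the sham operation and the infarction, respectively, together with EMPA, which the published study of this series names as empagliflozin, an inhibitor of glucose reuptake in the kidney. The labels give no other allele or agent, and the sources used here do not give the dose of EMPA, the time from surgery to marrow collection, or the age and sex of the mice. The libraries are named by group and by the number in the column name, which gives Sham 1, 3 and 4, Sham-E 1, 2 and 3, MI 1, 2 and 3, and MI-E 2, 3 and 4. Whether the 3 libraries of a group are 3 mice is not stated in the labels, so p-values measure only the spread between these libraries, which may be technical.

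Type I interferons are secreted proteins that bind a receptor made of Ifnar1 and Ifnar2 on nearly all cells. The kinases Jak1 and Tyk2 then activate Stat2, which joins Irf9 in the complex ISGF3. This complex binds a DNA element called the interferon-stimulated response element (ISRE) and switches on a large set of genes, many of which block steps of viral replication. In marrow, a low interferon tone is present without infection, plasmacytoid dendritic cells are known as strong producers of interferon, and stem cells, monocytes and neutrophils are known to respond to it.

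The ISRE core is shown for 11 members, because it is the sequence that ISGF3 reads. The stretches come from RefSeq promoter windows (table build GRCm38.p6, printed as mm10) that run from 250 bases before to 50 bases after each start site, written 5′ to 3′ along the gene. Capitals mark each match to GAAANNGAAA on either strand, which reads TTTCNNTTTC on the other strand, and overlapping matches form 1 run of capitals. Stat2, the partner of Irf9 in ISGF3, held 1 match on the plus strand of chr10:128270251-128270310.
Stat2: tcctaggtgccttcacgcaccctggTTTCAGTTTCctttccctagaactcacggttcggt
Among the oligoadenylate synthetases, Oas1a (chr5:120907526-120907570, minus strand) held 2 overlapping matches and Oas3 (chr5:120777700-120777759, minus strand) held 1.
Oas1a: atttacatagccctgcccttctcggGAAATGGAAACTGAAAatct
Oas3: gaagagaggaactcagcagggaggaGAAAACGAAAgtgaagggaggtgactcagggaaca
The Ifit genes lie side by side on chromosome 19, and 3 of them held a pair of matches. The stretches lie on the plus strand at chr19:34640760-34640838, chr19:34583348-34583441 and chr19:34607744-34607837. Those of Ifit3 and Ifit3b were identical over 94 of 94 bases. Their first matches began 156 and 188 bases before the start site, so the 2 windows are offset. Aligned, the whole windows matched in 258 of 340 columns, or 75.9%, where a gap counted as a mismatch. That percentage therefore does not measure how far paired bases differ.
Ifit1: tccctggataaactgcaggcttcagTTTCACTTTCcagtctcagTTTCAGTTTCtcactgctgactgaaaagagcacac
Ifit3: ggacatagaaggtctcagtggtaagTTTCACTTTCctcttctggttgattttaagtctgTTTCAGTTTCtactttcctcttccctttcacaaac
Ifit3b: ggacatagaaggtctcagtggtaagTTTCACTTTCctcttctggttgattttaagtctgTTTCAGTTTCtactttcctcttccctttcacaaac
Isg15 (chr4:156200850-156200921, minus strand) held 3 overlapping matches within 78 bases of its start site, and Bst2 (chr8:71537562-71537627, minus strand) held 2.
Isg15: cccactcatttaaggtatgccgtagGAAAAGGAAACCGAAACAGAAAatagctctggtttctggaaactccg
Bst2: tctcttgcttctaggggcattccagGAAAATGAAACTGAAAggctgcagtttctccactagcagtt
Rsad2 (chr12:26456538-26456597, minus strand) and Trim30a (chr7:104465195-104465254, minus strand) held 1 match each.
Rsad2: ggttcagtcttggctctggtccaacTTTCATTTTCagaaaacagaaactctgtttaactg
Trim30a: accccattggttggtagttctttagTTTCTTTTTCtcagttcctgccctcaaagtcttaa
Cxcl10 (chr5:92349068-92349127, minus strand) also held 1 match.
Cxcl10: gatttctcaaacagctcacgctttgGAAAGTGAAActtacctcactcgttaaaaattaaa
The windows of Ddx58, Eif2ak2 and Ifih1 also held 1 match each and that of Ifitm3 held 2, all after the start site and not printed. A second window of Trim30a held 1 match after its own start site, also not printed. In all a match was found in 15 of the 27 members that had a window and in 3.96% of the 10783 tested genes that had one. A window was found for 75.0% of the members, which is under 80%, so a statement on the whole list is void. Dhx58, Zbp1, Oas2, Ifi27l2a, Mx1, Mx2, Usp18, Parp14 and Rtp4 had none. The windows of Irf7, Irf9, Ifit2, Oasl1, Oasl2, Ifi44, Xaf1, Cmpk2, Herc6, Ifi35, Lgals3bp and Sp100 did not hold these letters.

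Libraries held 21175087 to 24606783 counts, so a member at 1 CPM, a count scaled to library size, rested on about 20 counts or more in every library. Pairs of libraries correlated at r = 0.985 to 0.987 (log2 CPM) within Sham and 0.981 to 0.985 within MI-E, against 0.945 to 0.981 within Sham-E and 0.947 to 0.97 within MI. Mitochondrial genes made 2.23% to 3.58% of counts in MI, with MI 2 the highest, and 1.33% to 1.87% elsewhere. The insert length, fitted from the ratio of count to TPM over genes with 1 transcript, was 263.3 to 265.2 bp in MI and 271.1 to 286.9 bp in the other groups. The part of these differences in the results was not tested. All 10 genes of each list for early B-lineage cells, mature neutrophils and erythroid cells passed the filter on low counts, so the labelled tissue was not contradicted. The early B-lineage list stood at 7.68% of its Sham level in Sham-E 1, 24.0% to 27.7% in MI-E and 27.3% to 50.3% in MI. The erythroid list stood at 14.5% in Sham-E 1. In whole marrow, fewer cells of a type and less RNA per cell cannot be told apart.

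Members differed widely in level. By TPM, a level that corrects for depth and for transcript length, the Sham means ran from 684 for Ifitm3, 548 for Ifi27l2a, 188 for Sp100, 160.2 for Isg15 and 135 for Bst2 down to 1.72 for Ifi44. Levels within 1 gene are compared below in CPM with TMM scaling, a scale that does not correct for length. Between the 3 Sham libraries the members were as steady as other genes, with a median coefficient of variation of 10.1% against 9.84% over all genes tested. In MI-E it was 16.3% against 13.3%. In Sham-E it was 44.4% against 19.3%, and in MI 45.6% against 24.4%, so the members varied more than other genes in these 2 groups.

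In each of these 2 groups 1 library lay apart from the other 2. Taking each member as a percentage of its Sham mean, the median over the 36 was 94.3%, 109% and 96.2% in Sham 1, 3 and 4. It was 44.1% in Sham-E 1 but 109% and 113.6% in Sham-E 2 and 3. It was 49.8% and 45.6% in MI 1 and 3 but 87.9% in MI 2. The 3 MI-E libraries lay together at 42.6%, 47.4% and 47.1%. Over all genes tested the same median lay between 98.2% and 101.9% in every library. Sham-E 1 thus sat at the level of the MI-E libraries, and MI 2 sat near Sham.

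**Figure D1:**
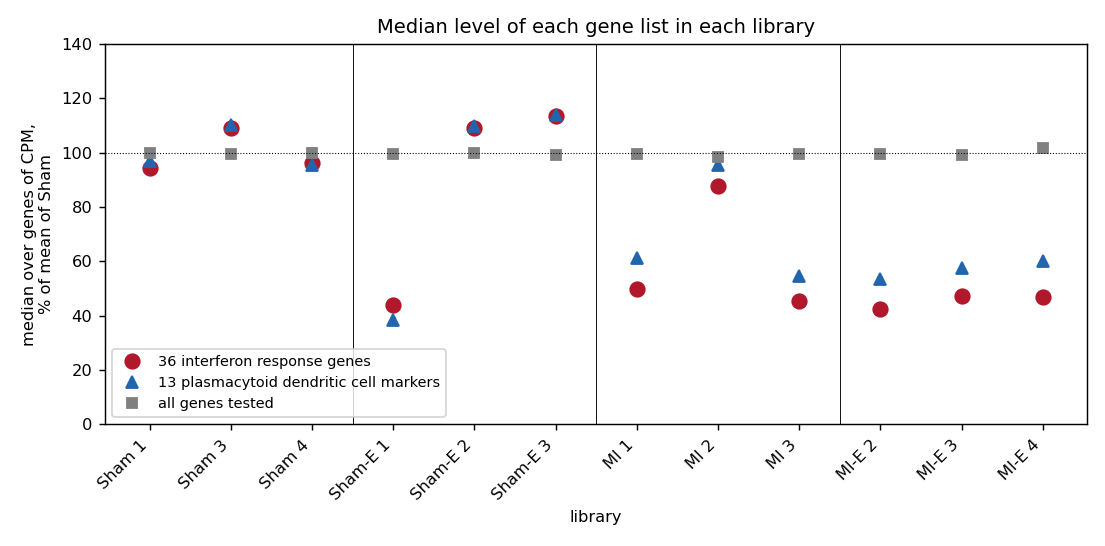
Median over genes of the CPM in each library (vertical axis) as a percentage of the mean of the 3 Sham libraries, for the 36 members (circles), 13 plasmacytoid dendritic cell markers (triangles) and all genes tested (squares). The members stand at 44.1% in Sham-E 1, 49.8% and 45.6% in MI 1 and MI 3, between 42.6% and 47.4% in MI-E, and at 87.9% in MI 2.

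The order was shared by nearly every member. Sham-E 1 was the lowest Sham-E library for 35 members, all but Ifitm3, as for 40.4% of all genes. It lay below every Sham library and both other Sham-E libraries for 33, as for 31.8% of all genes, and the exceptions were Ifit2, Ifitm3 and Cxcl10. It lay below every MI-E library or inside their range for 27, as for 65.5% of all genes. MI 2 was the highest MI library for 33 members, as for 33.3% of all genes, while Rsad2 and Lgals3bp were highest in MI 3 and Cxcl10 in MI 1. MI 1 lay below every Sham library for 33 members and MI 3 for 33, as for 37.3% and 40.1% of all genes. MI 1 and MI 3 both lay below every Sham library for 31 members, as for 21.7% of all genes. MI 2 lay below every Sham library for 19, as for 38.5% of all genes. Sham-E 2 and 3 both exceeded every MI-E library for 35 members, all but Ifitm3, as for 21.6% of all genes. MI 2 also exceeded every MI-E library for 35, all but Lgals3bp, as for 36.2% of all genes.

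**Figure D2:**
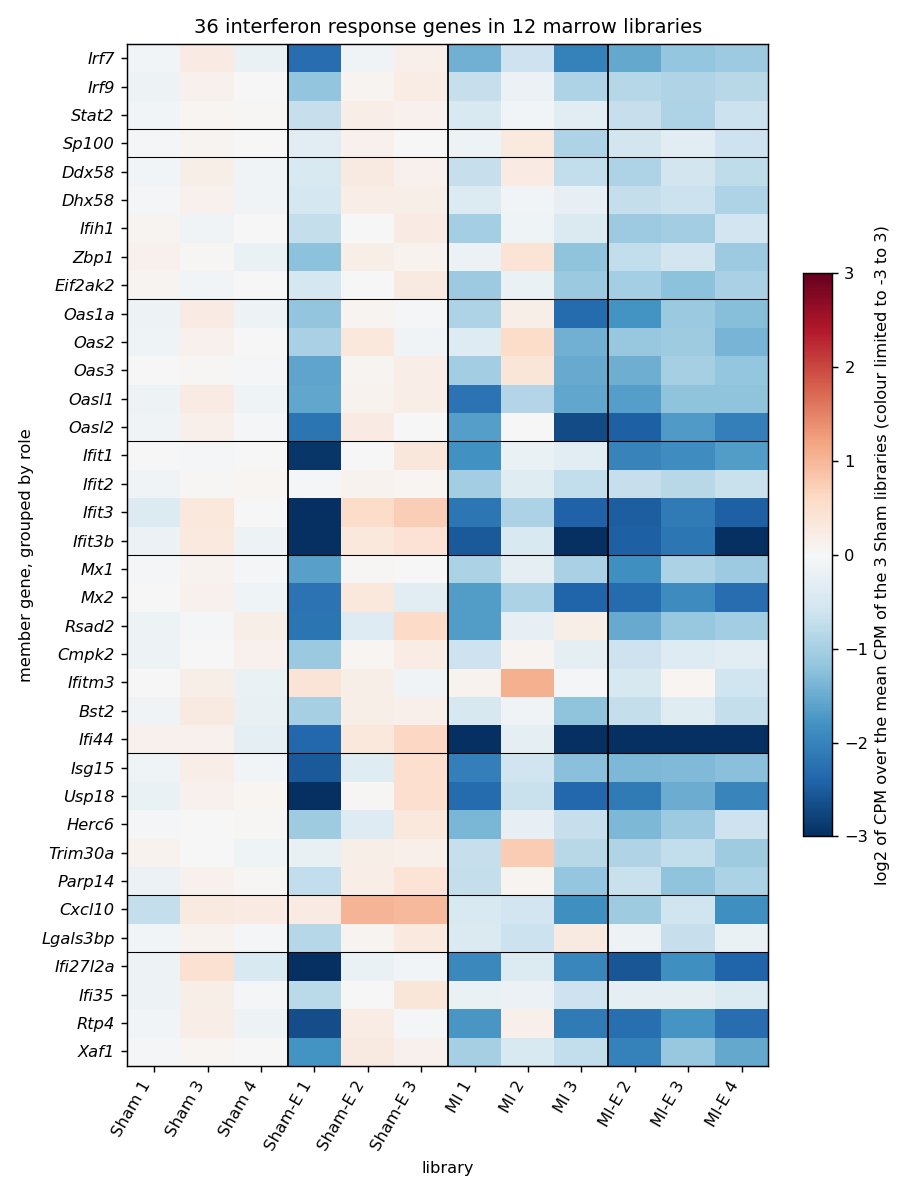
Colour gives log2 of each member's CPM (rows, grouped by role) over its mean in the 3 Sham libraries, in each of 12 libraries (columns); blue is lower and red is higher. The columns of Sham-E 1, MI 1, MI 3 and the 3 MI-E libraries are mostly blue, and those of Sham-E 2 and Sham-E 3 are not. The MI 2 column is mixed and on the whole paler, with a median of 87.9% of the Sham mean. In MI 2, 19 members lay below every Sham library and 7 above, as for 38.5% and 36.7% of all genes.

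Markers of plasmacytoid dendritic cells moved in the same libraries, and so did early B-lineage markers, given at the end of this paragraph. The median of the 13 markers, all of which passed the filter, was 38.6% of the Sham mean in Sham-E 1, 61.4% and 54.8% in MI 1 and 3, 95.4% in MI 2, 53.4% to 60.2% in MI-E, and 110% and 113.7% in Sham-E 2 and 3. Their summed level ranged from 366.8 to 391.7 CPM in MI-E, from 297 to 465.6 in MI and from 253.9 to 623.2 in Sham-E, against 546.2 to 743.3 in Sham. No defining marker was at 0. The lectin gene Siglech had 48.5, 49.8 and 43.2 CPM in Sham, 23.2, 60.45 and 55.2 in Sham-E, 34.2, 55.9 and 29.8 in MI and 26.98, 25.45 and 32.8 in MI-E. The transcription factor gene Tcf4, which these cells need, had 54.2, 64.02 and 54.6 CPM in Sham, 36.97, 65.5 and 68.25 in Sham-E, 33.8, 54.97 and 47.2 in MI and 30.75, 33.8 and 31.6 in MI-E. Runx2, a second factor of the list, had 54.5, 58.3 and 55.8 CPM in Sham, 48.2, 61.8 and 47.4 in Sham-E, 42.03, 57.05 and 51.1 in MI and 35.5, 39.7 and 35.5 in MI-E. For these 3 genes MI 2 lay inside the Sham range or above it. Other markers were low in MI 2. Spib, a factor gene that B cells also express, had 238, 368 and 283 CPM in Sham, 75.5, 269 and 256 in Sham-E, 119, 169.7 and 77.8 in MI and 161, 171 and 147 in MI-E. Pacsin1, an adaptor gene, had 7.04, 8.33 and 6.79 CPM in Sham, 3.98, 8.11 and 7.91 in Sham-E, 5.63, 2.23 and 4.045 in MI and 5.498, 6.195 and 6.46 in MI-E, with MI 2 the lowest of all 12. Bst2, a member, is itself expressed strongly by these cells. The order was not particular to plasmacytoid dendritic cell markers. The median of the early B-lineage list was 7.68% of the Sham mean in Sham-E 1, against 85.6% and 86.6% in Sham-E 2 and 3. It was 27.3%, 50.3% and 43.7% in MI 1, 2 and 3, and 24.0% to 27.7% in MI-E. The part of plasmacytoid dendritic or B-lineage cells in the members' levels was not tested.

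The members include 3 factors that carry the interferon signal to DNA. Irf7, the factor that amplifies interferon production and is induced by interferon in turn (chr7:141262706-141266481, mm10), had 94.8, 119 and 86.6 CPM in Sham. It had 20.5, 92.6 and 110.5 in Sham-E, 37.1, 64.8 and 24.6 in MI and 34.8, 44.5 and 47.1 in MI-E. All 3 MI and all 3 MI-E libraries lay below the lowest Sham library, and Sham-E 1 lay below all of them. Irf9, the DNA-binding part of ISGF3, had 115, 140.4 and 129.8 in Sham, 56.9, 137 and 149 in Sham-E, 80.1, 113 and 67.5 in MI and 70.6, 69.1 and 71.7 in MI-E. MI 2 came within 2 CPM of Sham 1, and again the MI-E libraries stood apart from Sham. Stat2 had 69.1, 76.4 and 75.1 in Sham, 45.7, 84.25 and 80.7 in Sham-E, 53.6, 69.2 and 58.7 in MI and 45.6, 38.9 and 47.3 in MI-E. Its MI-E libraries lay below every Sham and every MI library.

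The sensors of viral nucleic acid are the second group. Eif2ak2 encodes PKR, the kinase that halts translation on binding double-stranded RNA. It had 60.1, 54.05 and 57.2 CPM in Sham, 39.9, 57.1 and 69.05 in Sham-E, 26.8, 49.9 and 26.5 in MI and 28, 24.25 and 29.1 in MI-E, so all 6 infarcted libraries lay below every Sham library. Dhx58, which encodes the RNA helicase LGP2, had 32.5, 36.8 and 31.1 CPM in Sham, 23.2, 38.6 and 37.8 in Sham-E, 25.2, 31.6 and 28.02 in MI and 20.3, 21.5 and 17.75 in MI-E. Its MI-E libraries lay below every library of the other 3 groups. Ifih1, which encodes the double-stranded RNA sensor MDA5, had 45.5, 39.5 and 42.9 CPM in Sham, 26.2, 42.8 and 50.65 in Sham-E, 20.95, 38.9 and 31.4 in MI and 20.2, 20.6 and 28.7 in MI-E. Ddx58, which encodes RIG-I, had 62.5, 74.3 and 61.03 CPM in Sham, 47.8, 79.3 and 72.65 in Sham-E, 40.9, 78.5 and 39.8 in MI and 34.4, 44.9 and 38.9 in MI-E. For Ddx58 the MI 2 library exceeded every Sham library, and MI-E lay below all Sham and all Sham-E libraries. Zbp1, a sensor of Z-form nucleic acid, had 29.5, 27.6 and 23.5 CPM in Sham, 11.4, 30.5 and 28.7 in Sham-E, 23.6, 35.9 and 11.6 in MI and 16.2, 18.4 and 12.6 in MI-E, with the widest gap within MI between MI 2 and MI 3.

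The oligoadenylate synthetases make the second messenger that activates RNase L, and their relatives Oasl1 and Oasl2 act in the same response. Oas2, Oas3 and Oas1a lie within 177.2 kb at chr5:120730333-120907521, and Oasl2 and Oasl1 within 41.0 kb at chr5:114896936-114937915. Oasl2 had 84.8, 101 and 86.7 CPM in Sham, 19.8, 107 and 90.65 in Sham-E, 28.9, 90.96 and 14.1 in MI and 16.7, 27.97 and 21.9 in MI-E. MI 2 stood inside the Sham range, and the other MI libraries at 31.9% and 15.6% of the Sham mean. Oas3 had 179.7, 183.5 and 170.1 CPM in Sham, 58.98, 188 and 203 in Sham-E, 86.3, 227 and 62.2 in MI and 64.5, 88.4 and 79.3 in MI-E, with MI 2 above every Sham library. Oas2 had 49.35, 58.5 and 52.9 CPM in Sham, 27.2, 66.5 and 49.7 in Sham-E, 41.2, 78.4 and 19.6 in MI and 24.5, 25.6 and 20.5 in MI-E, and its MI 2 library was the highest of all 12. Oas1a had 37.5, 49.3 and 37.5 CPM in Sham, 18.2, 43.95 and 39.7 in Sham-E, 21.8, 47.1 and 8.44 in MI and 12.01, 19.25 and 16.97 in MI-E. Its values are uncertain, because 57.6% of the 50-base words of its exons occur in the neighbouring copy Oas1g. Oasl1, a brake on translation of Irf7, differed from its relatives in that MI 2 stayed low. It had 15.95, 21.01 and 16.1 in Sham, 5.97, 19.1 and 20.3 in Sham-E, 3.82, 9.67 and 5.97 in MI and 5.67, 7.72 and 7.69 in MI-E, so no infarcted library reached the Sham range.

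The Ifit genes, whose products bind viral RNA and block its translation, lie within 99.3 kb at chr19:34550694-34650009 and yet did not move alike. Ifit1 had 23.9, 23.1 and 23.98 CPM in Sham, 3.11, 23.7 and 29.8 in Sham-E, 6.76, 20.8 and 18.9 in MI and 5.88, 6.53 and 7.37 in MI-E. Here MI 2 and MI 3 stood together near Sham, and MI 1 stood with MI-E. Ifit3 had 9.60, 15.9 and 12.9 CPM in Sham, 1.17, 18.8 and 21.4 in Sham-E, 2.855, 6.69 and 2.37 in MI and 2.33, 2.95 and 2.37 in MI-E. Ifit3b, its near copy, had 5.12, 7.10 and 5.20 CPM in Sham, 0.303, 7.26 and 7.865 in Sham-E, 1.01, 4.26 and 0.641 in MI and 1.06, 1.29 and 0.2275 in MI-E, down to 5 counts in MI-E 4. Both stood below every Sham library in all infarcted libraries, but 51.2% of the 50-base words of Ifit3 occur in Ifit3b, so how their reads divide is uncertain. Ifit2 had the lowest mean coefficient of variation within groups of the 36 members. It had 22.1, 24.3 and 24.9 in Sham and 22.96, 25.6 and 24.9 in Sham-E, against 11.6, 18.6 and 14.3 in MI and 14.8, 13.3 and 14.9 in MI-E. All 6 infarcted libraries lay below all 6 sham-operated libraries, and Sham-E 1 stood with its group, unlike for Ifit1, Ifit3 and Ifit3b.

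**Figure D3:**
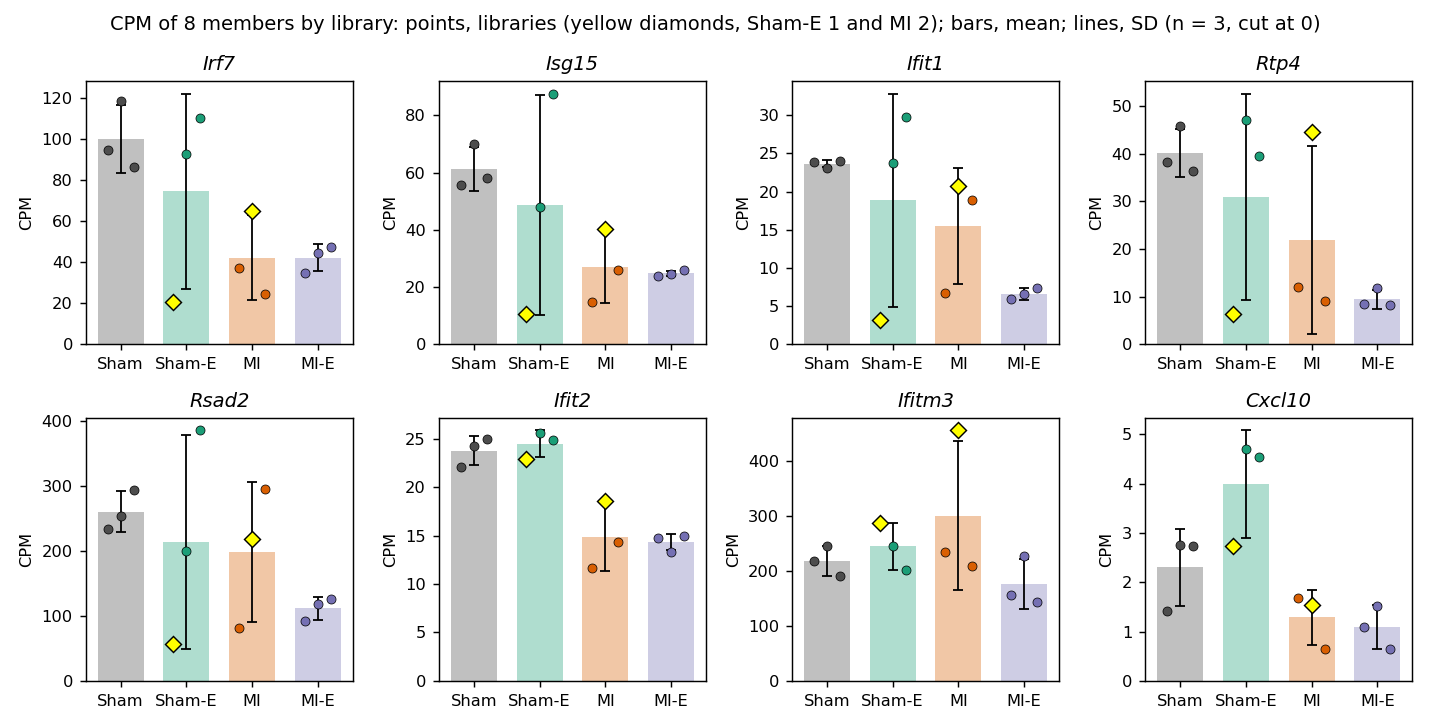
CPM (linear axis from 0) of 8 members in the 12 libraries: points are libraries, yellow diamonds mark Sham-E 1 and MI 2, bars are group means and lines the SD (n = 3). Ifit2 separates the infarcted from the sham-operated libraries, whereas for Irf7, Isg15, Ifit1 and Rtp4 the Sham-E 1 point lies with the MI-E points or below them.

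Among the other direct antiviral effectors, the dynamin-like GTPase genes Mx1 and Mx2 lie within 113.9 kb at chr16:97447035-97560900. Mx1 had 15.2, 17.1 and 15.2 CPM in Sham, 5.15, 16.15 and 16 in Sham-E, 8.19, 13.04 and 8.09 in MI and 4.44, 8.20 and 7.42 in MI-E. Mx2, which the annotation lists as a polymorphic pseudogene, had 4.39, 4.84 and 4.01 CPM in Sham, 0.951, 5.51 and 3.51 in Sham-E, 1.39, 2.28 and 0.839 in MI and 0.888, 1.19 and 0.910 in MI-E. For both genes every infarcted library lay below every Sham library. Ifi44, an interferon-induced cytoplasmic protein gene, was the lowest member by TPM. It had 3.84, 3.82 and 2.90 CPM in Sham, 0.692, 4.35 and 5.42 in Sham-E, 0.420, 2.875 and 0.395 in MI and 0.423, 0.334 and 0.273 in MI-E, which is 6 to 10 counts in each MI-E library. Bst2, the tetherin that holds budding virus at the cell surface, had 51.9, 67.5 and 47.8 CPM in Sham, 28.15, 62.5 and 62.3 in Sham-E, 39.8, 51.8 and 24.2 in MI and 33.8, 43.4 and 33.9 in MI-E. Rsad2 encodes viperin, which makes a chain-ending nucleotide, and its neighbour Cmpk2, a mitochondrial nucleotide kinase gene, lies within the same 37.1 kb at chr12:26442746-26479837. Rsad2 had 233, 254 and 294 in Sham, 57.3, 199 and 386 in Sham-E, 82.2, 218 and 295 in MI and 91.8, 119 and 125.5 in MI-E. Cmpk2 had 109.7, 122.5 and 134 CPM in Sham, 56.8, 127 and 142.5 in Sham-E, 79.99, 128 and 100.5 in MI and 79.5, 94.2 and 96.9 in MI-E. MI 3 held as much Rsad2 as the highest Sham library, against the low level of most members in that library. Ifitm3, which blocks virus entry at endosomes, did not follow the order of the list. It had 218, 246 and 191 in Sham, 287, 246 and 202 in Sham-E, 235, 456.5 and 209.7 in MI and 156, 228 and 145 in MI-E, with Sham-E 1 the highest of its group and MI 2 the highest of all 12.

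Isg15 is a ubiquitin-like protein that interferon induces and that is attached to other proteins, and Usp18 removes it and damps the receptor. Isg15 had 55.7, 70.2 and 58.3 CPM in Sham, 10.7, 48.1 and 87.7 in Sham-E, 14.9, 40.25 and 25.95 in MI and 23.98, 24.5 and 25.8 in MI-E. Usp18 had 17.5, 21.9 and 20.96 CPM in Sham, 2.465, 20.65 and 28.5 in Sham-E, 4.03, 12.7 and 3.95 in MI and 4.65, 7.195 and 5.10 in MI-E. Both lay below Sham in all infarcted libraries, and their lowest library was Sham-E 1. Herc6, the ligase gene for Isg15 in mice, had 39.5, 41.2 and 41.4 CPM in Sham, 19.6, 30.98 and 50.7 in Sham-E, 15.8, 34.05 and 25.01 in MI and 16.03, 19.1 and 26.6 in MI-E, with 13.7% of its exon bases shared with the overlapping gene Gm45193. Trim30a, a tripartite-motif gene, had 116, 109.5 and 99.8 CPM in Sham, 93.45, 123 and 120.1 in Sham-E, 67.7, 185 and 60.6 in MI and 58.5, 64.8 and 52.01 in MI-E. Its MI 2 library was the highest of all 12, at 170.4% of the Sham mean, and its other infarcted libraries lay below every Sham and Sham-E library. Parp14, an ADP-ribosyltransferase gene, had 88.5, 108 and 102 CPM in Sham, 59.8, 115 and 132 in Sham-E, 60.4, 106 and 44.65 in MI and 62.85, 43.5 and 51.2 in MI-E.

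Of the 2 secreted members, the chemokine gene Cxcl10 was near the lower end of detection. It had 1.41, 2.75 and 2.74 CPM in Sham, 2.72, 4.70 and 4.53 in Sham-E, 1.68, 1.54 and 0.641 in MI and 1.10, 1.525 and 0.637 in MI-E. Its Sham-E 1 level was inside the Sham range, and MI-E lay below every Sham-E library. The antisense gene Art3 covers 5.9% of its exon bases. Lgals3bp, which encodes a secreted galectin-binding glycoprotein, had 85.95, 98.2 and 88.5 CPM in Sham, 50.55, 96.25 and 111 in Sham-E, 67.4, 57.99 and 109.5 in MI and 81.5, 56.4 and 78.8 in MI-E, with MI 3 the highest of its group.

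The remaining members have less settled roles in the response. Rtp4, a chaperone gene induced by interferon, had 38.2, 45.9 and 36.4 CPM in Sham, 6.31, 47.2 and 39.5 in Sham-E, 12.01, 44.6 and 9.18 in MI and 8.375, 11.8 and 8.24 in MI-E, and 13.9% of its exon bases are shared with Gm45338. MI 2 was inside the Sham range, whereas MI 1, MI 3 and Sham-E 1 stood at 29.9%, 22.8% and 15.7% of the Sham mean. Ifi27l2a, a small mitochondrial protein gene, had 71.15, 109 and 57.6 CPM in Sham, 6.01, 68.9 and 75.4 in Sham-E, 20.9, 59.5 and 20.5 in MI and 13.3, 22.3 and 15.1 in MI-E. Xaf1, a pro-apoptotic interferon target, had 18.5, 19.9 and 19.1 CPM in Sham, 5.535, 23.3 and 20.9 in Sham-E, 9.66, 14.03 and 11.4 in MI and 4.695, 8.72 and 6.60 in MI-E. Its MI-E libraries lay below every Sham and MI library. Sp100, a scaffold of nuclear bodies, had 220, 244 and 228 CPM in Sham, 182, 253 and 234 in Sham-E, 206.5, 283 and 122 in MI and 156, 186 and 149 in MI-E. Ifi35 had 34.7, 43.75 and 37.2 CPM in Sham, 22.05, 38.4 and 49.7 in Sham-E, 33.8, 34.3 and 25.01 in MI and 31.4, 31.6 and 28.8 in MI-E, with 16.8% of its exon bases antisense to Gm11626, and the counting is not stated to use strand.

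After infarction without EMPA, most members stood lower than in Sham, and none passed the test. The log2 fold change of MI against Sham was negative for 35 of 36 members, as for 47.6% of all genes, with a median of −0.65 against 0.03 over all genes, and Ifitm3 was the exception. By edgeR's quasi-likelihood test with Benjamini-Hochberg adjustment over 15119 genes, 0 members had an adjusted p under 0.05, as against 0.417% of all genes in either direction, and 7 had an unadjusted p under 0.05 on the lower side, as against 8.61%. The 3 MI libraries lay wholly below the 3 Sham libraries for 17 members, as for 13.8% of all genes. All 4 Ifit genes were among them. The smallest p belonged to Ifit2 (−0.68 ± 0.17, SE; edgeR adjusted p = 0.07) and Oasl1 (−1.45 ± 0.42; 0.11). Eif2ak2 (−0.73 ± 0.25; edgeR adjusted p = 0.13) and Mx2 (−1.55 ± 0.52; 0.13) came next. Irf7 (−1.25 ± 0.51; edgeR adjusted p = 0.21), Ifit3 (−1.69 ± 0.76; 0.25), Usp18 (−1.55 ± 0.70; 0.26) and Herc6 (−0.71 ± 0.34; 0.27) made up the 8 smallest. Most mature neutrophil markers moved the other way in this comparison. The median of the 10 stood at 178.4%, 203.7% and 110.6% of the Sham mean in MI 1, 2 and 3, beside 109.8% in Sham 1. Of the 10, 8 were positive and 2 negative, the lowest at −1.56. By edgeR 7 had an unadjusted p under 0.05 on the higher side, as against 10.9% of all genes. The formyl peptide receptor genes Fpr2 (1.18 ± 0.20; edgeR adjusted p = 0.035) and Fpr1 (0.84 ± 0.15; 0.038) rose. The part of these 10 markers in the members' levels was not tested. For the members, DESeq2 called 3 lower, namely Oasl1, Ifit2 and Mx2, as against 3.49% of all genes, while limma-voom and limma on log2 TPM called 0.

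The 2 libraries that stood apart decided this count. Sham-E 1 is in neither group and enters through the shared estimate of spread, the filter and the scaling. Without it 7 members passed as lower in edgeR, as did 3.78% of all genes. Leaving out MI 2, 3 passed, as did 0.632%, and the median was −0.91. Leaving out both, 24 members passed, as did 6.05% of all genes. These 24 were Irf7, Irf9, Ddx58, Ifih1, Eif2ak2, Oas1a, Oas3, Oasl1, Oasl2, Ifit2, Ifit3, Ifit3b, Mx1, Mx2, Bst2, Ifi44, Isg15, Usp18, Herc6, Trim30a, Parp14, Ifi27l2a, Rtp4 and Xaf1. Both libraries were singled out with these data in view, so the counts without them are descriptions and give no independent support.

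**Figure D4:**
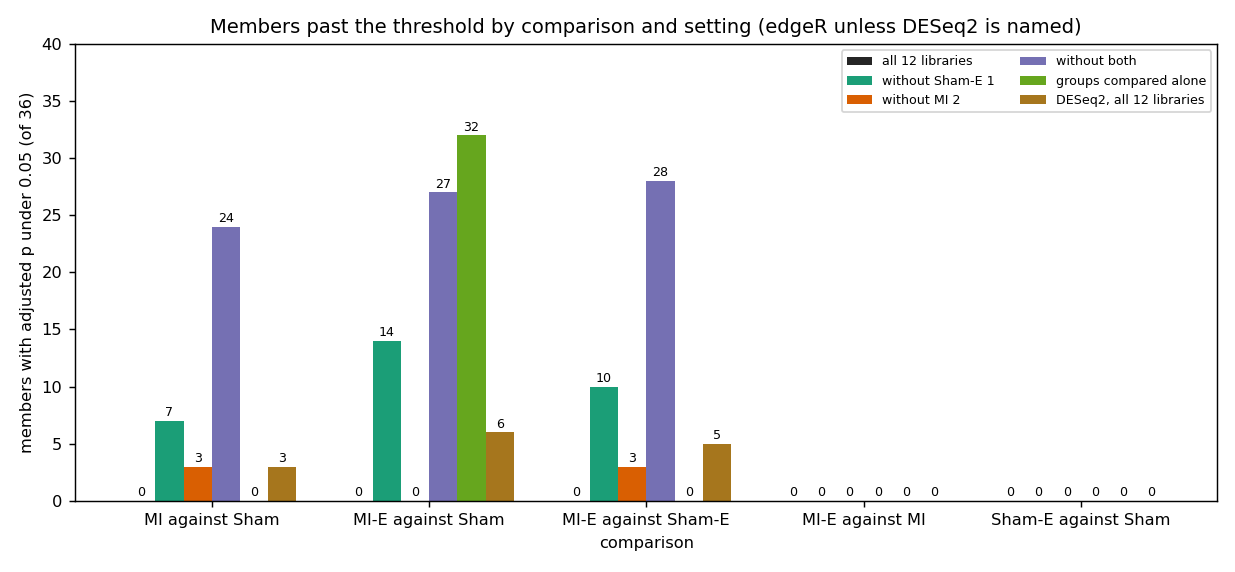
Number of the 36 members with an adjusted p under 0.05 (vertical axis), in 5 comparisons and under 6 settings, edgeR unless DESeq2 is named. With all 12 libraries the count is 0 in each; without Sham-E 1 and MI 2 it is 24 for MI against Sham, 27 for MI-E against Sham and 28 for MI-E against Sham-E, and it stays 0 for the other 2 comparisons.

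In infarcted mice given EMPA the members stood below untreated Sham with little overlap between libraries. For MI-E against Sham all 36 log2 fold changes were negative, as for 47.6% of all genes, with a median of −1.13 against 0.02 over all genes. The 3 MI-E libraries lay wholly below the 3 Sham libraries for 34 members, as for 17.1% of all genes, and Ifitm3 and Cxcl10 were the exceptions. In the fit to all 12 libraries 0 members passed in edgeR, as did 0% of all genes, although 28 had an unadjusted p under 0.05 on the lower side, as against 6.82%. Ifit2 (−0.73 ± 0.17), Eif2ak2 (−1.08 ± 0.25), Dhx58 (−0.75 ± 0.19) and Mx2 (−2.14 ± 0.54) had the smallest p, each with an edgeR adjusted p of 0.26. Ifi44 (−3.33 ± 0.86), Stat2 (−0.74 ± 0.20), Xaf1 (−1.52 ± 0.42) and Ifih1 (−0.88 ± 0.26) followed at the same edgeR adjusted p of 0.26. By role, the median log2 fold change was −2.09 for the 4 Ifit genes and −1.52 for the 5 members of less settled role. It was −1.33 for the 5 Oas genes, −1.22 for 7 antiviral effectors and −0.98 for the 5 genes around Isg15. For the 3 factors it was −0.87, for the 5 sensors −0.77 and for the 2 secreted members −0.71.

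This comparison depended on which libraries were fitted. When Sham and MI-E were fitted alone, 32 members passed as lower in edgeR, as did 7.73% of all genes. Ifitm3, Cxcl10, Lgals3bp and Ifi35 did not. Without Sham-E 1 there were 14, as against 1.04% of all genes, and without both MI 2 and Sham-E 1 there were 27, as against 3.03%. DESeq2 called 6, namely Dhx58, Eif2ak2, Ifit2, Mx2, Ifi44 and Xaf1, as against 0.702% of all genes, and limma-voom and limma on log2 TPM called 0. The median log2 fold change lay between −1.26 and −1.10 whichever library was left out. The 13 plasmacytoid dendritic cell markers moved with this comparison. All 13 were negative, as were 47.6% of all genes, and the MI-E libraries lay below every Sham library for 11, as for 17.1%. Of these markers 0 passed by edgeR, and 4 had an unadjusted p under 0.05 on the lower side, as against 6.82% of all genes. Their part in the result was not tested.

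**Figure D5:**
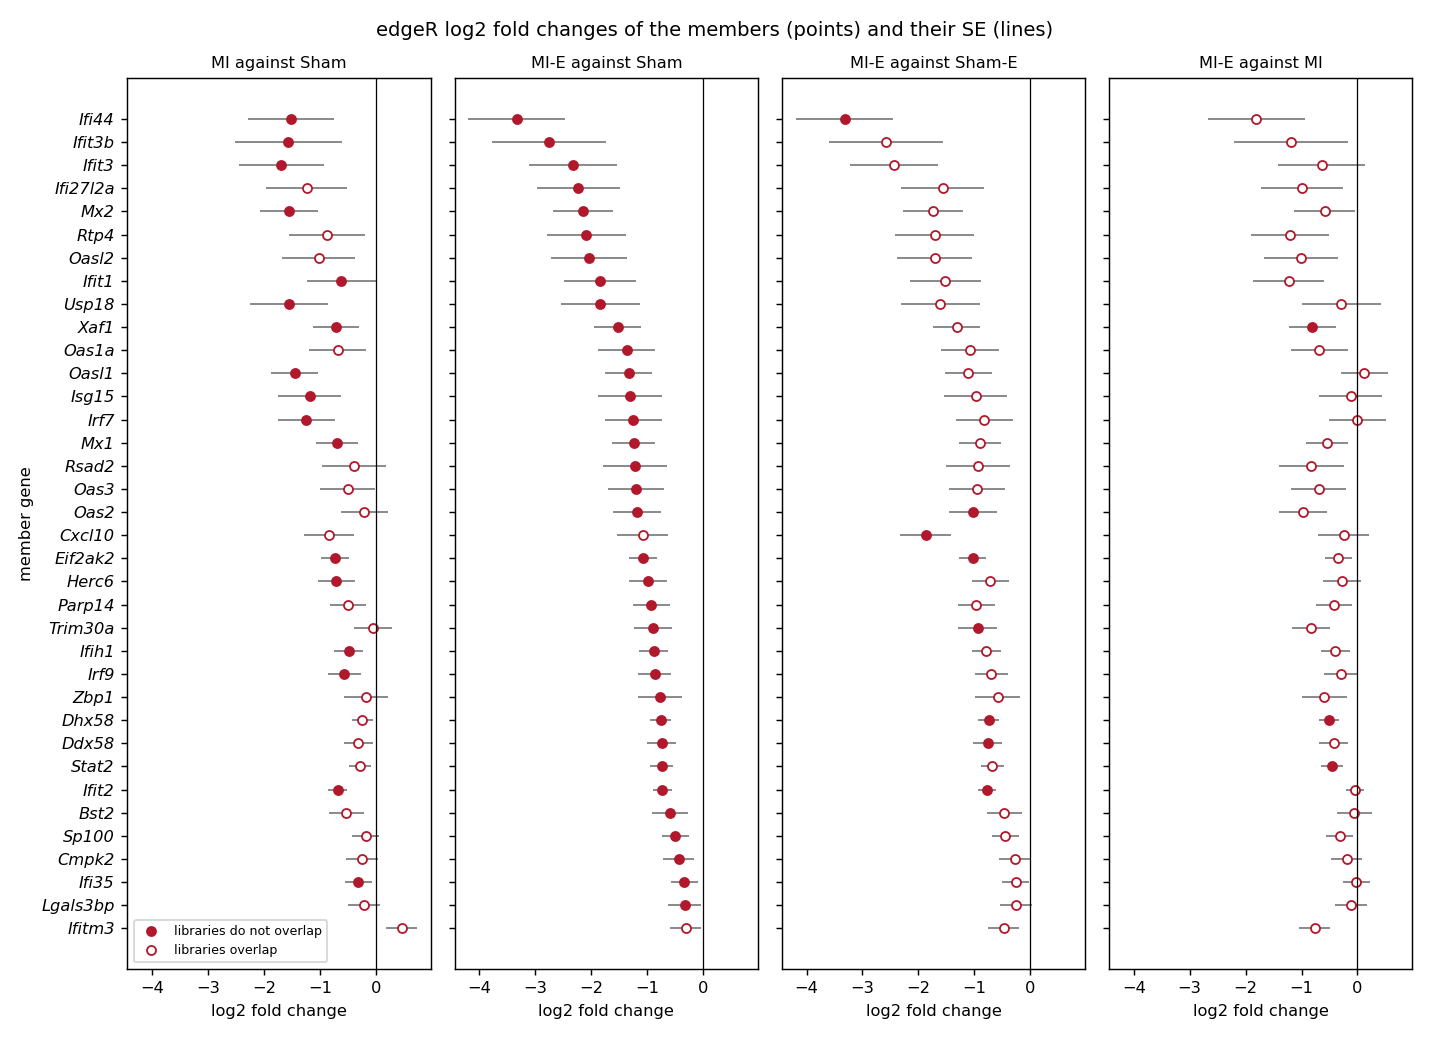
edgeR log2 fold changes (horizontal axis) and SE of the 36 members in 4 comparisons, ordered by MI-E against Sham; filled points mark members whose libraries do not overlap between the groups. In MI-E against Sham all 36 points lie below 0 and 34 are filled; in MI-E against MI 3 are filled.

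Among mice given EMPA, the infarcted group again stood below the sham-operated one. For MI-E against Sham-E all 36 log2 fold changes were negative, as for 49.6% of all genes, with a median of −0.95 against 0.00 over all genes. By edgeR 0 members passed, as did 0% of all genes, and 22 had an unadjusted p under 0.05 on the lower side, as against 7.45%. Limma-voom and limma on log2 TPM called 0. The groups did not overlap for 8 members, as for 12.2% of all genes. Among the other 28, Sham-E 1 lay inside or below the MI-E range for 27. Those 8 were Ifit2, Eif2ak2, Cxcl10, Dhx58, Ifi44, Ddx58, Trim30a and Oas2. Ifit2 (−0.77 ± 0.17), Eif2ak2 (−1.03 ± 0.25), Cxcl10 (−1.87 ± 0.45), Dhx58 (−0.74 ± 0.19) and Ifi44 (−3.32 ± 0.86) had an edgeR adjusted p of 0.24 each, and DESeq2 called these 5, as against 1.06% of all genes. Stat2 (−0.68 ± 0.20; edgeR adjusted p = 0.25), Mx2 (−1.74 ± 0.53; 0.26) and Xaf1 (−1.31 ± 0.42; 0.27) followed. Without Sham-E 1 the median was −1.27 and 10 members passed in edgeR, as did 0.478% of all genes. Without MI 2 there were 3, as against 0.239%, and without both 28, as against 2.54%.

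Between infarcted mice with and without EMPA no member passed the test. For MI-E against MI 35 of 36 log2 fold changes were negative, all but Oasl1, as for 52.4% of all genes, with a median of −0.49 against −0.02 over all genes. By edgeR 0 members passed, as against 0.00661% of all genes, and 5 had an unadjusted p under 0.05 on the lower side, as against 8.88%. DESeq2, limma-voom and limma on log2 TPM also called 0. The groups did not overlap for Dhx58, Stat2 and Xaf1, 3 members in all, as for 10.1% of all genes. The smallest p belonged to Dhx58 (−0.51 ± 0.19; edgeR adjusted p = 0.2) and Ifitm3 (−0.77 ± 0.28; 0.2). Trim30a (−0.84 ± 0.34; edgeR adjusted p = 0.25), Stat2 (−0.46 ± 0.20; 0.26), Oas2 (−0.98 ± 0.43; 0.27), Ifi44 (−1.81 ± 0.87; 0.31), Xaf1 (−0.81 ± 0.42; 0.34) and Ifit1 (−1.23 ± 0.63; 0.34) followed. Without MI 2 the median was −0.05, 21 members were negative and 15 positive. The lower median of MI-E than of MI thus rested on the MI 2 library. For Dhx58, Stat2 and Xaf1, the 3 members without overlap, every MI-E library also lay below MI 1 and MI 3. That is no larger a share than the 10.1% of all genes, so it does not set the members apart. The log2 fold changes of Dhx58, Stat2 and Xaf1 stayed at or below −0.423, −0.352 and −0.609 under every alternative. That of Ifit1 stayed at or below −0.95, although its MI 1 library lay inside the MI-E range. None of these 4 passed under any alternative.

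EMPA in sham-operated mice gave no member that passed. For Sham-E against Sham 29 of 36 log2 fold changes were negative, as for 47.5% of all genes, with a median of −0.17 against 0.01 over all genes. By edgeR 0 members passed, as did 0% of all genes, and 0 had an unadjusted p under 0.05, as against 0.681% on the lower side. DESeq2, limma-voom and limma on log2 TPM called 0. The groups did not overlap for 0 members, as against 4.46% of all genes on the lower side. The smallest p belonged to Cxcl10, which was positive (0.79 ± 0.43), followed by Mx1 (−0.35 ± 0.37), Ifi27l2a (−0.66 ± 0.71), Irf7 (−0.42 ± 0.50), Mx2 (−0.41 ± 0.50) and Herc6 (−0.27 ± 0.33), all with an edgeR adjusted p of 1. Without Sham-E 1 the median was 0.15, with 35 members positive and 1 negative. The sign of this comparison therefore turned on that library.

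Taking both treatments together, Ifit2 fell after infarction. For the average of MI and MI-E against the average of Sham and Sham-E, the log2 fold change of Ifit2 was −0.73 ± 0.12 (SE) with an edgeR adjusted p of 0.039, and it was the 1 member that passed, as against 0.284% of all genes in either direction. Its levels were 23.8 ± 1.465 (SD, n = 3) CPM in Sham, 24.5 ± 1.38 (SD, n = 3) in Sham-E, 14.8 ± 3.51 (SD, n = 3) in MI and 14.3 ± 0.870 (SD, n = 3) in MI-E. It was also the 1 member with no overlap between the 6 infarcted and the 6 sham-operated libraries, as for 0.694% of all genes on the lower side. All 36 members were negative, as for 48.8% of all genes, with a median of −0.73 against 0.01 over all genes, and 26 had an unadjusted p under 0.05 on the lower side, as against 9.73%. Eif2ak2 (−0.88 ± 0.17; edgeR adjusted p = 0.062), Mx2 (−1.65 ± 0.37; 0.07), Cxcl10 (−1.35 ± 0.32; 0.074) and Oasl1 (−1.28 ± 0.30; 0.074) came next. Ifi44 (−2.42 ± 0.58; edgeR adjusted p = 0.076), Dhx58 (−0.49 ± 0.13; 0.082) and Ifit3 (−2.06 ± 0.55; 0.086) made up the 8 smallest.

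The call of Ifit2 was not firm in edgeR. Its adjusted p ran from 1.1e-05 to 0.16 over 21 alternatives and passed in 11, and it was lost when any 1 library other than Sham-E 1 or MI 2 was left out. The log2 fold change stayed between −0.90 and −0.65. DESeq2 called 18 members, as against 3.59% of all genes. With no filter on low counts edgeR called 3, as against 0.228%, and limma on log2 TPM called 5 with 0.1 added and 5 with 1 added, as against 1.71% and 2% of all genes. Without Sham-E 1, 27 members passed in edgeR, as did 4.97% of all genes, without MI 2 there were 21, as against 4.39%, and without both 33, as against 9.54%. Rsad2, Ifitm3 and Lgals3bp were the 3 that did not pass without both.

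Whether the EMPA difference depended on the operation was tested as the difference of the 2 EMPA differences. By edgeR 0 members passed, as against 0.00661% of all genes, and 1 had an unadjusted p under 0.05 on the lower side, as against 7.28%. DESeq2, limma-voom and limma on log2 TPM called 0. Of the 36 members 31 were negative, as were 53% of all genes. The median was −0.40 against −0.04 over all genes, and −0.04 by limma-voom. Ifitm3 (−0.93 ± 0.39; edgeR adjusted p = 0.35), Dhx58 (−0.50 ± 0.26; 0.41) and Trim30a (−0.89 ± 0.48; 0.43) had the smallest p. Without MI 2 the median was 0.07, and without Sham-E 1 it was −0.66, so this value too turned on single libraries. These 7 comparisons share their groups, and their values are not independent of each other.

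No gene of the lists upstream of the members passed the test in edgeR. Of 21 interferon genes looked for, 1 passed the filter on low counts, the type II interferon gene Ifng, with −0.35 ± 0.92 for MI against Sham (edgeR adjusted p = 0.86). Ifnb1 had 2 counts in Sham 3 and 0 in every other library, and every listed Ifna gene had 0 counts in all 12. A count of 0 allows up to 3 counts in a library, counting error only, so no change in these ligands was detectable at this depth. The receptor genes were well covered, with Ifnar1 at 99.2, 103 and 102 CPM in Sham and 86.8, 99.7 and 93.8 in MI-E, and Ifnar2 at 92.1, 96.15 and 86.4 and 94.95, 89.8 and 97.3. Of 9 receptor and signal genes 0 passed in any of the 7 comparisons by edgeR. For MI against Sham 8 of the 9 were positive, with a median of 0.27, and Stat3 (0.70 ± 0.20; edgeR adjusted p = 0.11) and Ifnar2 (0.46 ± 0.16; 0.15) had the smallest p. For MI-E against Sham 5 were positive and 4 negative, with a median of 0.02. Jak1 had a log2 fold change of −0.30 ± 0.13 there, with an edgeR adjusted p of 0.35.

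Of 17 sensors and adaptors outside the 36, 11 had a positive and 6 a negative log2 fold change in MI against Sham, with a median of 0.19, where 47.6% of all genes were negative. By edgeR 0 passed, and 5 had an unadjusted p under 0.05 on the higher side and 1 on the lower side, as against 10.9% and 8.61% of all genes. Tlr7, the endosomal receptor for single-stranded RNA (0.64 ± 0.15; edgeR adjusted p = 0.067), and its adaptor gene Myd88 (0.82 ± 0.23; 0.094) had the smallest p. Among 8 other IRF and related factors 0 passed by edgeR, 1 had an unadjusted p under 0.05 in each direction, and Irf4 (−1.43 ± 0.54; edgeR adjusted p = 0.18) and Irf5 (0.44 ± 0.17; 0.18) led. Of 13 feedback genes 0 passed by edgeR, with 2 under an unadjusted p of 0.05 on the lower side and 1 on the higher side, and with Adar (−0.46 ± 0.17; edgeR adjusted p = 0.17) and Nlrx1 (0.76 ± 0.29; 0.18) in front.

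A wider list of 81 other interferon-induced genes, of which 80 were found and tested, was mostly negative too. For MI-E against Sham 64 were negative and 16 positive, where 47.6% of all genes were negative, with a median of −0.45 beside −1.13 for the members. By edgeR 0 passed, 27 had an unadjusted p under 0.05 on the lower side and 4 on the higher side, as against 6.82% and 6.87% of all genes. The MI-E libraries lay below every Sham library for 47 of the 80, as for 17.1% of all genes, and Rnf213 (−1.05 ± 0.26) and Dtx3l (−0.64 ± 0.16) had the smallest p, each with an edgeR adjusted p of 0.26. For MI against Sham 53 were negative and 27 positive, with a median of −0.15. In Sham-E 1 the median level of this list was 82.9% of the Sham mean, beside 44.1% for the members, and in MI 2 it was 112.6%, beside 87.9%.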

How the data were processed

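Total RNA of mouse bone marrow was sequenced in 12 libraries, 3 per group. Expected counts, all of them whole numbers, and TPM values per gene were deposited by the authors. CASAVA 1.8, STAR 2.4.0j, RSEM and the mm10 build are named in the submitters' processing notes, and strandedness is not given in the sources used here. Every library held at least 21175087 counts, so depth was a limit mainly for members near 1 CPM. The spread between libraries limited precision at every level, with a median coefficient of variation of the members of 45.6% in MI and 44.4% in Sham-E.

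The counts were fitted in edgeR 4.0.16 (R 4.3.3) with filterByExpr, TMM scaling, 4 group means over all 12 libraries, 8 residual degrees of freedom and the robust quasi-likelihood test, with Benjamini-Hochberg adjustment over 15119 genes and a threshold of 0.05. The fit was tested on simulated data. SE was taken as the size of the log2 fold change divided by the root of F. Alternatives were other scalings, other filters, DESeq2 1.42.0, limma 3.58.1 (voom, and log2 TPM with 0.1 or 1 added), groups compared alone, and libraries left out. A library left out leaves 2 in its group, and the spread is pooled over groups. The filter and the scaling were run anew on the libraries kept.

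Named members are, per comparison, those past the threshold and the 8 with the smallest p. Folds of list genes are given for the 2 of smallest p, and levels also for Siglech and Ifnar1, chosen after their values were seen. One gene of a pathway list is not reported here. Members and lists were chosen with earlier results of these data known. Gene positions and overlaps come from GENCODE M21, and copies were compared by shared words of 50 bases.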

Additional observations from a re-analysis of the deposited data

How the results depend on the processing

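The median log2 fold change of the members kept its sign under every alternative in 4 comparisons, which does not cover the sign of each member. With 1 library left out it lay between −0.91 and −0.52 for MI against Sham. For MI-E against Sham-E it lay between −1.27 and −0.72, and for MI-E against Sham between −1.26 and −1.10. For the average over both treatments it lay between −0.94 and −0.65. The counts past the threshold did not hold. With DESeq2 they were 3, 5, 6 and 18 in these 4 comparisons, and without MI 2 and Sham-E 1 together 24, 28, 27 and 33. With 1 library left out they ran from 0 to 7, 0 to 10, 0 to 14 and 0 to 27. The highest counts came without Sham-E 1, and those without MI 2 were 3, 3, 0 and 21. MI-E against Sham with the groups fitted alone gave 32. The average over both treatments gave 3 with no filter on low counts and 5 with limma on log2 TPM at either pseudocount. The interaction and the comparisons of Sham-E with Sham and of MI-E with MI gave 0 calls under every alternative, and their medians ran from −0.66 to 0.07, −0.41 to 0.15 and −0.59 to −0.05 with 1 library left out. In Sham-E against Sham, where 35 of the 36 members were positive without Sham-E 1, 5 of the named log2 fold changes turned positive both without Sham-E 1 and without it and MI 2, and with 1 library left out ran from −0.589 to 0.024 for Mx1, −0.82 to 0.022 for Irf7, −0.993 to 0.033 for Mx2, −0.686 to 0.004 for Herc6 and −0.408 to 0.143 for Cmpk2. The cause was not tested. Of the values of named members under the alternatives, 1088 kept their side of the threshold and direction, 107 newly passed, 10 no longer passed and 10 reversed. Limma on log2 TPM moved the median of all genes by −0.221 to −0.135 in the 4 comparisons of infarcted with sham-operated groups, the largest shift being for MI-E against Sham with 0.1 added, and by −0.038 to 0 in the others. No paired analysis was possible because the Sham columns are numbered 1, 3 and 4 and the MI-E columns 2, 3 and 4 while the sample titles run from 1 to 3, so these columns match a group and no single sample. Depth limits Cxcl10, Ifi44, Ifit3b and Mx2, whose lowest libraries held 13, 6, 5 and 17 counts.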

Other observations

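The interferon-induced transmembrane genes Ifitm6 and Ifitm1 stood opposite to most members. They were the 2 genes of smallest p of the wider list in MI against Sham, and other genes of their family are not given here. Ifitm6 had 472, 405 and 354 CPM in Sham, 1365, 438 and 306 in Sham-E, 1604, 1685 and 1450 in MI and 1011, 1098 and 815 in MI-E. Ifitm1 had 35.4, 39.8 and 34.98 CPM in Sham, 148, 42.55 and 26.9 in Sham-E, 169, 188 and 106 in MI and 141, 187 and 119 in MI-E. All 6 infarcted libraries lay above every Sham library for both genes, and Sham-E 1 again stood with the infarcted libraries, here on the high side. For MI against Sham the log2 fold changes were 1.95 ± 0.44 for Ifitm6 (SE; edgeR adjusted p = 0.063) and 2.07 ± 0.52 for Ifitm1 (0.084), so neither passed. MI 2 was not apart from MI 1 for these 2 genes, unlike for most of the 36 members. Both genes were named by the rule for lists, and the comparison with MI 1 was made after their values were seen.

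Slfn4, an interferon-induced gene of myeloid cells chosen after its values were seen, had 639, 579 and 528 CPM in Sham, 1149, 718 and 472 in Sham-E, 391, 1549 and 191 in MI and 325, 463 and 277 in MI-E. Its MI 2 library was the highest of all 12 and its MI 3 library the lowest.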
